A study of Mus musculus with 50 samples.

Results

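Rab GTPases are small membrane-bound switches that give each compartment of the secretory and endocytic pathways its identity. In the GTP-bound form a Rab recruits effectors that bud, move, tether or fuse vesicles. In the GDP-bound form it is taken off the membrane by GDP dissociation inhibitors, and prenyl groups on cysteines near its C terminus anchor it. In endothelium the pathway is best known for receptor and cadherin turnover through early and recycling endosomes, and for release of von Willebrand factor from storage granules.

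The members were the rows of the expression table whose symbol begins with Rab and a digit. The rule took 57 of 11879 rows. Of these, 48 encode Rab GTPases and 9 encode proteins that act on or bind Rabs but are not GTPases (Rab3gap1, Rab3gap2, Rab3il1, Rab3ip and Rab11fip1 to Rab11fip5), which are described apart. The label was checked on the coding sequences. The phosphate-binding loop pattern of small GTPases (a Gly, any 4 residues, then Gly-Lys and a Ser or Thr) was found in 46 of the 48, with Rab40b and Rab40c the exceptions, and at least 1 cysteine within the last 5 residues was found in all 48.

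The data were 50 single iRunx1-iHECs, hemogenic endothelial cells derived in culture from mouse embryonic stem cells of C57BL/6 background, which carried at the Rosa26 locus a Runx1 cassette induced by doxycycline. All cells carried the cassette and shared the sort gate CD31+CD41lowCD45-c-kit+CD201high, so no uninduced or wild-type group was present. One stem cell line was the source, which limits these cells as a model, and no culture was named in the labels, so the 50 cells were treated as 1 sample without replicates and nothing below is a significance test. Values are TPM, transcript abundances scaled by transcript length and by the total of the cell, so that levels of different genes in a cell can be set side by side, but they keep no sequencing depth.

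The label was checked on marker genes. The endothelial genes Pecam1, Cdh5 and Esam, and Procr (CD201) of the gate, passed TPM 1 in all 50 cells, Kit in 47 and Itga2b (CD41, gated as low) in 40, and Ptprc (CD45) was listed at 0 in all. Of the blood genes, Lyz2 was above TPM 1 in 15 cells (up to 988 TPM), Pf4 in 17 (up to 181 TPM) and Hba-a1 in 1, and their part in the Rab values was not tested. The number of genes above TPM 1 served as a measure of how much of a cell was captured. Cell 4-6, named by the numbers of its title, stood apart with 2400 genes, against 4326 in the next lowest and a median of 6223.5. The other 49 cells are given beside each range that this cell sets. Titles begin with a number from 1 to 4 (11, 14, 13 and 12 cells), whose meaning the labels do not give.

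Because the families below hold near copies of each other, part of their coding sequence is shown first, to make visible how paralogs can be told apart by reads. Each line gives 45 bases of coding sequence (GENCODE M21, GRCm38), from 5′ to 3′ on the coding strand, centred on the codons of the WDTAGQE motif of the nucleotide-binding domain, which 40 of the 48 GTPases hold. Capitals mark bases not shared by all listed members of that family.

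Rab1 (the older symbol of Rab1a): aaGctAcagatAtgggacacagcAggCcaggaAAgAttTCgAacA
Rab1b: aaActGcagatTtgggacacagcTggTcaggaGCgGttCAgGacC
Rab2a: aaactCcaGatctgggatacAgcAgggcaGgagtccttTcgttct
Rab2b: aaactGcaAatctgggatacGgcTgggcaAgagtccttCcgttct
Rab4a: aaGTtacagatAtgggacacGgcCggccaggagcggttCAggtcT
Rab4b: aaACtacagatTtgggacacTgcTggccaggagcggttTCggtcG
Rab5a: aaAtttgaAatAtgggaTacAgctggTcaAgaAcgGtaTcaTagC
Rab5b: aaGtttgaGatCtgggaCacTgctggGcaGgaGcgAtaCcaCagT
Rab5c: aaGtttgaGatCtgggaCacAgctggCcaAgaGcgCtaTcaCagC
Rab11a: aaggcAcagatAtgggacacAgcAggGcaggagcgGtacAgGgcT
Rab11b: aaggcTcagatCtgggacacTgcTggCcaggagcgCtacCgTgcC

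Even in this conserved stretch 12 of 45 bases differed among the 3 Rab5 genes, 12 between Rab1 and Rab1b, 9 between Rab11a and Rab11b, 8 between Rab4a and Rab4b and 6 between Rab2a and Rab2b. Over the whole coding sequence Rab1 and Rab1b were 77.6% identical in bases and 92.5% in amino acids. Their longest shared run of bases, in the transcripts compared, was 38, and that of Rab5a and Rab5b was 35. The longest shared run of Rab11a and Rab11b was 14 bases, although their proteins were 90.7% identical. How the authors' estimates divided reads that fall wholly inside such runs was not tested.

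The first question was how many Rab genes such a cell holds. The median cell had 30 of the 48 GTPase genes above TPM 1, with quartiles of 27 and 32.75 and a highest value of 38. Cell 4-6 had 13, and the other 49 cells had 22 to 38. Split by first title number, the 4 medians were 28.5 to 30.5. The number of GTPase genes in a cell followed the number of other genes above TPM 1 in it, with a Spearman correlation of 0.880 over the 50 cells (0.736 to 0.972 within the first title numbers), and the points share the capture of each cell. Differences between cells in the number of Rabs therefore cannot be told apart from differences in capture in these data. The summed TPM of the 48 genes had a Spearman correlation of 0.224 with the same number of genes, and its values within the first title numbers ran from -0.109 to 0.476.

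Of the 48 genes, 28 (58.3%) were above TPM 1 in at least 50% of the cells, close to the 53.2% of all 11879 rows. Another 16 were above TPM 1 in 1 to 24 cells, and 4 did not exceed TPM 1 in any cell. Of these 4, Rab17 (a recycling Rab of epithelial cells), Rab40b and Rab44 were listed at 0 in all cells, and Rab39 was above 0 in 1 cell, at 0.219 TPM. With 50 cells, a count of 0 leaves room for up to 6% of cells by the limit of 3 counts, and for up to 7.11% by the exact 95% interval. Both concern cells with the gene above TPM 1, not cells that express it below detection. In level, the 48 genes had a median of 26.6 TPM over their medians, against 2.1 TPM over all rows. Among genes above TPM 1 in at least 50% of the cells, these figures were 79.0 TPM for the 28 GTPases and 37.5 TPM for the 6324 rows.

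In all 50 cells, 7 GTPase genes were above TPM 1 (14.6%, against 7.15% of all rows). They were Rab1, Rab1b, Rab2a, Rab6a, Rab10, Rab11a and Rab14, which serve traffic between the endoplasmic reticulum (ER), the Golgi and the plasma membrane or recycling from endosomes. At a level of TPM 10, Rab1, Rab2a, Rab11a and Rab14 still counted in every cell. The lowest values of Rab1b, Rab6a and Rab10 were 1.19, 1.18 and 1.08 TPM, just inside the limit. Rab24 was above TPM 1 in 49 cells and listed at 0 in the remaining cell.

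**Figure D1:**
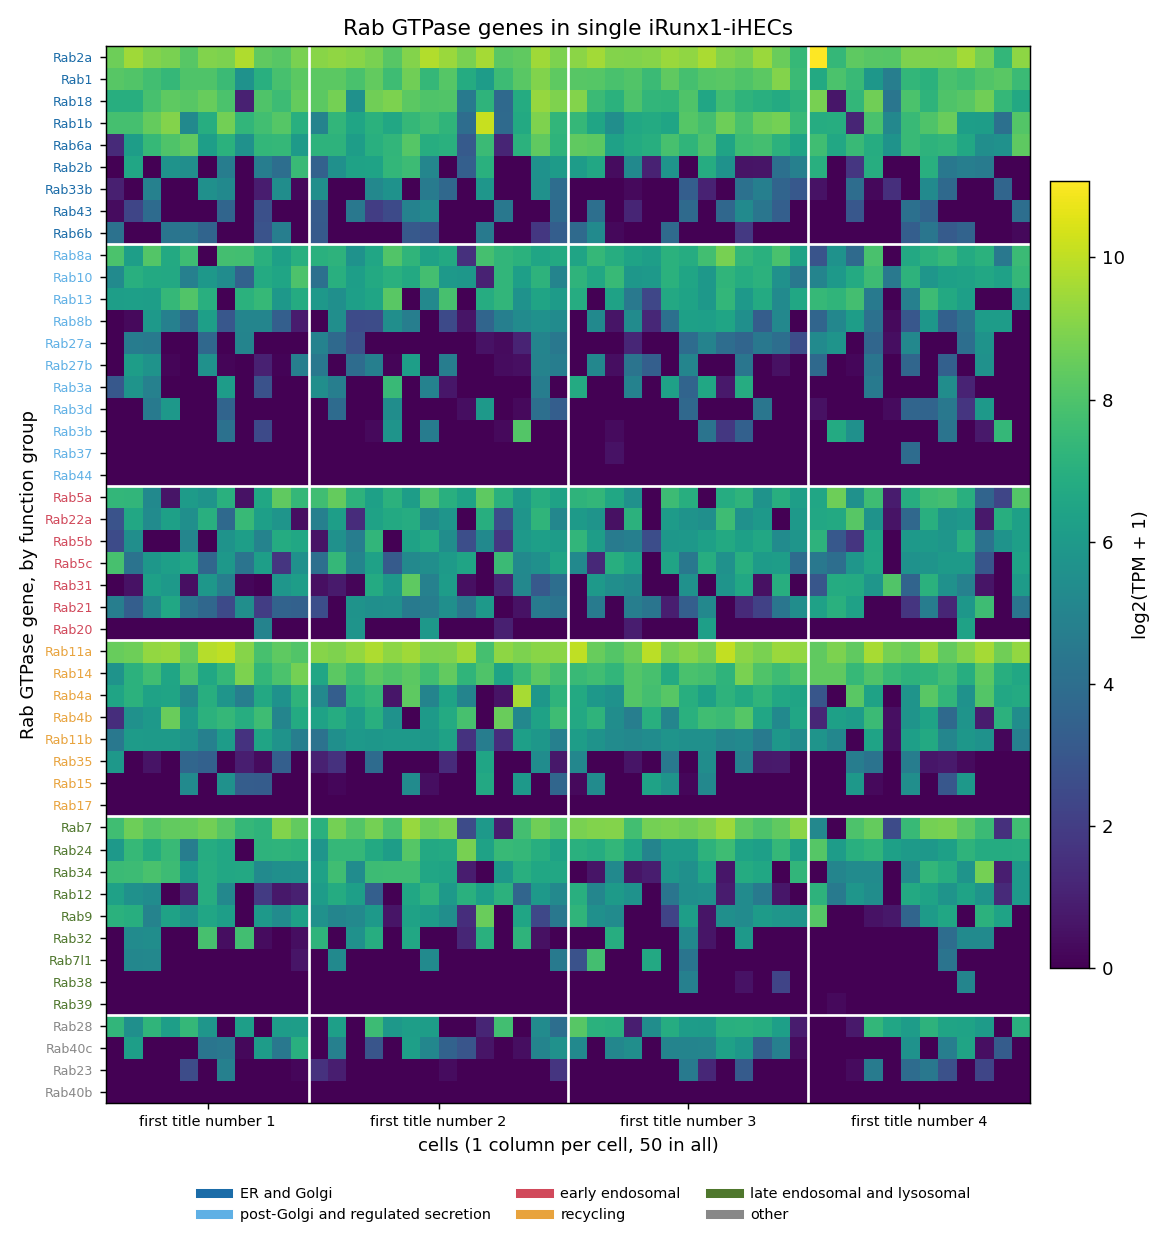
Heat map of log2(TPM + 1) for the 48 Rab GTPase genes (rows, ordered by function group and median) in the 50 cells (columns, divided by the first title number). Rab2a, Rab1, Rab11a and Rab14 form rows without a dark cell, whereas Rab17, Rab40b and Rab44 are dark in every cell.

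The genes were next placed in groups by the compartment each is best known for, with 4 genes (Rab23, Rab28, Rab40b and Rab40c) left as other. The summed TPM of all 48 genes had a median of 4169 per cell, or 0.434% of the TPM listed for a cell, with a highest value of 5936. It was 1498 in cell 4-6 and at least 2194 in the other 49 cells. The 9 ER and Golgi genes took a median of 35.1% of this sum (18.2% to 59.2% over cells), the 8 recycling genes 25.7% (13.5% to 46.8%) and the 9 late endosomal and lysosomal genes 16.1% (4.29% to 27.9%). The 11 genes of post-Golgi and regulated secretion took 10.1% (1.45% to 23.5%, or from 2.3% without cell 4-6), and the 7 early endosomal genes 8.90% (0.670% to 26.3%). Both secretory groups together made up 45.1%.

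The order of these groups varied between cells. The ER and Golgi group exceeded the recycling group in 35 of 50 cells, or 70% with an exact (Clopper-Pearson) 95% interval of 55.4% to 82.1%, and recycling genes led in the other 15. Recycling genes exceeded early endosomal genes in 50 of 50 cells. Single genes weighed heavily in these shares. The recycling sum had a median of 1019 TPM, and Rab11a alone had a median of 519 TPM. The 3 genes of highest median (Rab11a, Rab2a and Rab7) together took a median of 33.9% of the summed TPM (21.7% to 54.4%). The shares of the post-Golgi and early endosomal groups were close, with the first higher in 30 cells and the second in 20, an interval of 45.2% to 73.6% that includes an even division. These intervals cover counting error over cells only.

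**Figure D2:**
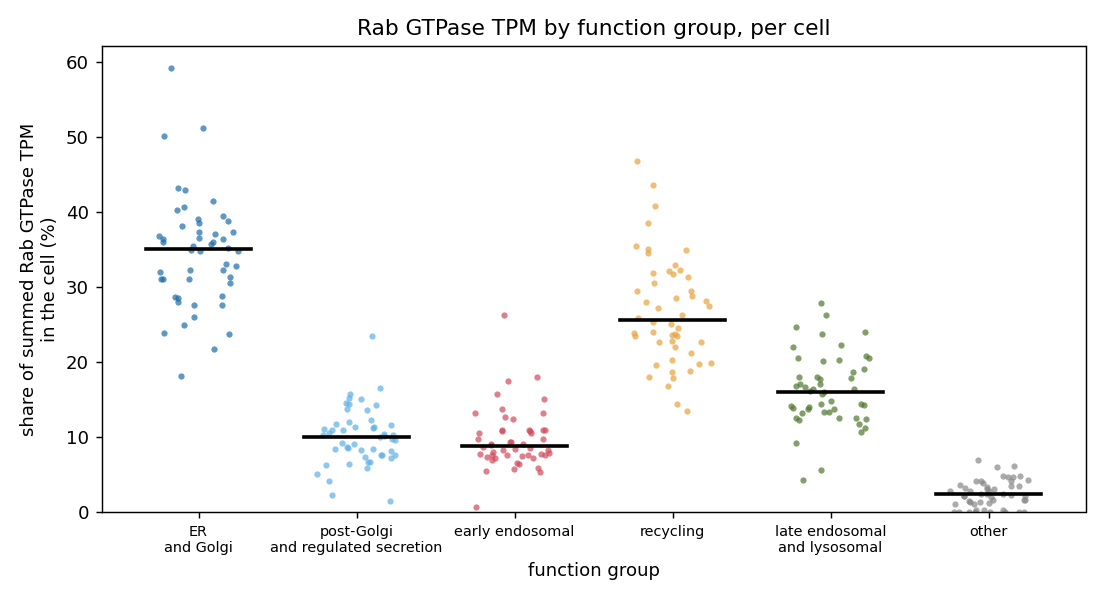
Share of the summed Rab GTPase TPM of a cell (vertical axis, %) taken by each function group, with 1 point per cell and a black line at the median of 50 cells. The ER and Golgi genes (median 35.1%) and the recycling genes (25.7%) lie highest, and their points overlap.

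Rab1 and Rab1b direct transport from the ER to the Golgi, and both were present in every cell. Gene positions here and below are those of GENCODE M21 on GRCm38, from first to last annotated base. Rab1 (chromosome 11, 20201432 to 20226856, plus strand) ran from 25.8 to 521 TPM with a median of 243. Rab1b (chromosome 19, 5099205 to 5107072, minus strand) ran from 1.19 to 1119 TPM with a median of 157, and its second highest value was 524. The ranges overlapped widely, and the lowest Rab1 value was that of cell 4-6, with 48.4 TPM the lowest of the other 49 cells. Within single cells Rab1 was the higher of the pair in 32 and Rab1b in 18 (64% led by Rab1, 95% interval 49.2% to 77.1%), and across the first title numbers the share led by Rab1 was between 41.7% and 85.7%. Neither paralog therefore held the lead throughout. By a criterion of at least 2 times the other, Rab1 led in 21 cells and Rab1b in 5.

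Rab2a and Rab2b act between the ER, the Golgi and autophagosomes, and here the choice of paralog was uniform. Rab2a (chromosome 4, 8535644 to 8607778, plus strand) ran from 158 to 2161 TPM with a median of 499, and its second highest value was 893. Rab2b (chromosome 14, 52261759 to 52279545, minus strand) passed TPM 1 in 34 cells, with a median of 24.8 and a highest value of 191 TPM. Rab2a was the higher in 50 of 50 cells and took a median of 95.03% of the pair's TPM. The highest Rab2b value lay above the lowest Rab2a value, so the ranges of the pair met across cells although Rab2b never led within a cell.

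The Golgi Rab6 pair was also led by 1 gene. Rab6a (chromosome 7, 100607410 to 100641268, plus strand), the ubiquitous form, had a median of 139 TPM and a range of 1.18 to 332 TPM. Rab6b (chromosome 9, 103111787 to 103185276, plus strand), best known from neurons, was above TPM 1 in 20 cells and did not exceed 38.1 TPM. Rab6a led in 49 cells and Rab6b in 1. Exons of Rab6a share 708 of 3728 bases with those of Mrpl48 on the opposite strand, and reads from that shared stretch cannot be assigned to 1 gene without strand.

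Rab18, which acts at the ER and lipid droplets, was above TPM 1 in 48 cells at a median of 218 TPM (0.611 to 639). Rab33b, a Golgi Rab that also acts in autophagy, and Rab43 were each above TPM 1 in 23 cells, at highest values of 54.7 and 38.9 TPM.

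On the way from the Golgi to the cell surface, 3 genes had the highest medians. Rab8a (chromosome 8, 72161200 to 72183904, plus strand) ran from 0 to 443 TPM (second highest value 275) with a median of 128, and was above TPM 1 in 48 cells. Rab10 (chromosome 12, 3247428 to 3309969, minus strand) had a median of 90.7 TPM and a range of 1.08 to 251 TPM. Rab13 (chromosome 3, 90213695 to 90226385, plus strand), which is tied to cell junctions, was above TPM 1 in 43 cells at a median of 75.8 TPM and listed at 0 in 7. Of the Rab8 pair, Rab8a was the higher in 45 cells and Rab8b in 5. Rab8b was above TPM 1 in 39 cells at a median of 16.8 TPM and a highest value of 89.0 TPM. Both were above TPM 1 together in 38 cells.

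Rabs of regulated granule release were present in fewer cells. Rab27a, which brings storage granules to the membrane of endothelial and blood cells, passed TPM 1 in 48% of the cells (24 of 50, 95% interval 33.7% to 62.6%) and reached 52.4 TPM. Its paralog Rab27b passed TPM 1 in 22 cells, up to 72.2 TPM. The pair occurred together in 14 cells, Rab27a alone in 10, Rab27b alone in 8 and neither in 18, so that at this level no paralog was held by most cells. With every value above 0 counted, Rab27a was in 54% of cells and Rab27b in 62%.

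The Rab3 genes were as scattered. Rab3a passed TPM 1 in 19 cells (highest value 179 TPM), Rab3d in 15 (63.0 TPM) and Rab3b in 12 (274 TPM). Rab37 exceeded TPM 1 in 1 cell, at 14.0 TPM. Counting Rab27a, Rab27b, Rab3a, Rab3b and Rab3d together, 7 cells had none of them above TPM 1, 17 had 1, 8 had 2, 13 had 3 and 5 had 4. Vwf, the main cargo of the endothelial granule, was above TPM 1 in 33 cells at a median of 8.12 TPM. Among these 33 cells Rab27a was above TPM 1 in 16, Rab27b in 13, Rab3a in 17, Rab3b in 9 and Rab3d in 10. Among the other 17 cells the same genes were above TPM 1 in 8, 9, 2, 3 and 5. No test was made of these counts, which were read off after their values were seen. In the same order, these Rab genes had Spearman correlations of 0.055, 0.374, 0.421, 0.036 and 0.120 with the genes above TPM 1 per cell. The part of capture in the counts was not tested.

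The early endosome was served by several paralogs at once. Rab5 proteins drive endosome fusion, and all 3 genes were above TPM 1 together in 39 of 50 cells, 2 of them in 8 cells, 1 in 2 and none in 1. Rab5a (chromosome 17, 53479234 to 53507680, plus strand) was above TPM 1 in 45 cells, at a median of 121 TPM and a range of 0 to 392 TPM. Rab5b (chromosome 10, 128677175 to 128696264, minus strand) passed TPM 1 in 44 cells, at a median of 52.8 TPM and a range of 0 to 158 TPM. Rab5c (chromosome 11, 100715009 to 100738215, minus strand) passed TPM 1 in 46 cells, at a median of 50.2 TPM and a range of 0 to 230 TPM. The 3 ranges overlapped, and what differed was the level rather than the number of cells.

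Within single cells Rab5a had the highest TPM of the family in 29 of the 49 cells with the family above TPM 1 (59.2%, 95% interval 44.2% to 73.0%), Rab5c in 11 and Rab5b in 9. Rab5a was above Rab5b in 40 cells and above Rab5c in 35. Rab5b and Rab5c were not set apart, with Rab5b higher in 23 cells and Rab5c in 26. The median share of the family's TPM was 48.3% for Rab5a, 21.4% for Rab5b and 19.9% for Rab5c.

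Rab22a and Rab31 are close relatives that sort cargo between endosomes and the Golgi. Rab22a (chromosome 2, 173659760 to 173707343, plus strand) was above TPM 1 in 43 cells, at a median of 53.9 TPM and a highest value of 290 TPM. Rab31 (chromosome 17, 65651729 to 65772752, minus strand) passed TPM 1 in 32 cells, at a median of 28.4 TPM and a highest value of 322 TPM. Rab22a led in 33 of 48 cells, or 68.8% (95% interval 53.7% to 81.3%), and Rab31 in 15. Rab21, which carries integrins into the cell, was above TPM 1 in 40 cells at a median of 18.9 TPM. Rab20 was above TPM 1 in 5 cells and listed at 0 in 43. In cell 4-6, Rab31 was the only early endosomal Rab above TPM 1.

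Recycling endosomes return receptors to the surface, and the gene of highest median in the whole family belongs here. Rab11a (chromosome 9, 64715299 to 64737758, minus strand) ran from 224 to 1081 TPM with a median of 519, and no cell lacked it. Rab11b (chromosome 17, 33742484 to 33760530, minus strand) passed TPM 1 in 47 cells, at a median of 47.7 TPM and a highest value of 105 TPM. The highest Rab11b value lay below the lowest Rab11a value, so the pair did not overlap in any of the 50 cells, and Rab11a was more than 2 times Rab11b in each. Rab11a took a median of 91.6% of the pair's TPM (72.3% to 100%). Across all 48 genes, Rab11a was the highest in 26 cells and Rab2a in 21, while Rab1b, Rab4a and Rab7 led in 1 cell each.

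Rab4 proteins return cargo by the fast route. Rab4a (chromosome 8, 123805985 to 123835287, plus strand) was above TPM 1 in 45 cells at a median of 88.6 TPM, and reached 787 TPM in 1 cell, with a next highest value of 321. Rab4b (chromosome 7, 27168424 to 27178896, minus strand) passed TPM 1 in 46 cells at a median of 82.3 TPM and a highest value of 377 TPM. In contrast to the Rab11 pair, the 2 genes were at like levels, with Rab4b leading in 26 of 48 cells and Rab4a in 22 (54.2% led by Rab4b, 95% interval 39.2% to 68.6%). Both were above TPM 1 together in 43 cells, yet the share of Rab4a in a cell ran from 0% to 100%.

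Rab14, which links the Golgi and recycling endosomes, was present in every cell at 51.1 to 474 TPM with a median of 203. Rab35, which acts in recycling of cadherins and in lumen formation, was above TPM 1 in 17 cells (34%, 95% interval 21.2% to 48.8%) and Rab15 in 16. Rab35 was above 0 but not above TPM 1 in another 10 cells, so its share depends on the level chosen. The highest values of Rab35 and Rab15 were 91.5 and 102.5 TPM.

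**Figure D3:**
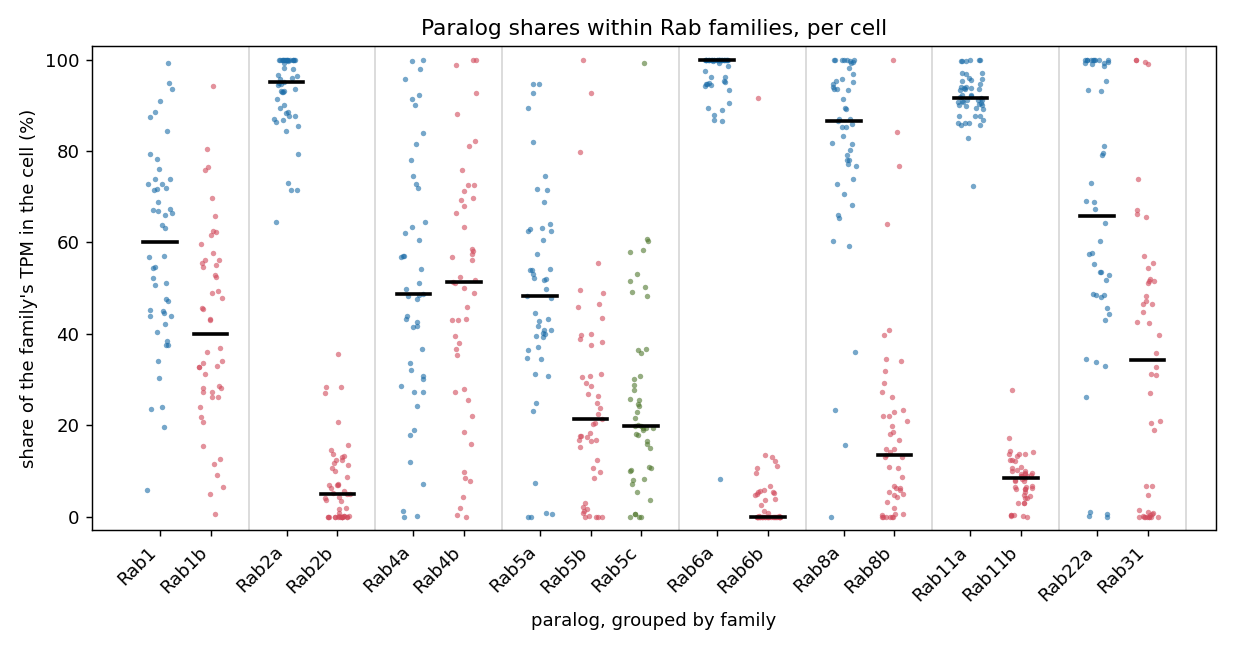
Share of a Rab family's TPM (vertical axis, %) held by each paralog, with 1 point per cell in which the family was above TPM 1 and a black line at the median. Rab2a and Rab11a stay at or above 64.4% and 72.3%, and Rab6a lies near the top but for 1 cell at 8.31%, whereas the points of Rab1 and Rab1b, of Rab4a and Rab4b, and of the 3 Rab5 genes spread over most of the range.

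Rab7 (chromosome 6, 87999106 to 88045270, minus strand) directs late endosomes to lysosomes. Its median was 326 TPM and its highest value 694 TPM, and 43 cells were above 100 TPM. Of the remaining 7 cells, 5 were at or below 4.87 TPM and 2 lay at 34.6 and 62.4 TPM. The 5 low cells, cell 4-6 among them, had a median of 4955 genes above TPM 1, against 6294 in the other 45. Whether their capture accounts for the low values was not tested. Rab34 and Rab28 had gaps of the same kind. For Rab34, 11 cells were at or below 0.902 TPM and the next value was 31.9 TPM. For Rab28, 13 cells were not above TPM 1, at a median over all cells of 69.5 TPM.

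Rab24, an atypical Rab of autophagy, was above TPM 1 in 49 cells at a median of 112 TPM, but 1258 of its 2015 exon bases also lie in exons of Prelid1 on the opposite strand, which had a median of 1021 TPM. Since the kit is not stated to keep strand, the level of Rab24 is uncertain. Over the 50 cells the Spearman correlation of the pair was 0.0427. Rab9, for transport from late endosomes to the Golgi, was above TPM 1 in 38 cells and Rab12 in 40, at medians of 45.6 and 46.2 TPM. Medians by first title number ran from 5.88 to 71.9 TPM for Rab9, from 2.85 to 71.1 TPM for Rab12 and from 37.8 to 103.1 TPM for Rab34. They ran from 197 to 458 TPM for Rab7, but only from 92.3 to 115.4 TPM for Rab24. Genes of other groups had ranges of the same kind, which were 27.4 to 113.4 TPM for Rab28, 11.6 to 47 TPM for Rab2b, 11.3 to 50.8 TPM for Rab31 and 0 to 31.1 TPM for Rab40c. The part of the title numbers in these values was not tested. Of the Rabs of lysosome-related organelles, Rab32 passed TPM 1 in 17 cells, up to 229 TPM, and Rab38 in 3. Rab7l1, now named Rab29, was above TPM 1 in 10 cells. Among the remaining genes, Rab40c was above TPM 1 in 28 cells at a median of 8.86 TPM, with its paralog Rab40b at 0, and Rab23, a regulator of hedgehog signaling, was above TPM 1 in 12.

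The spread from cell to cell was described by the SD of log2(TPM + 1). For the 28 genes above TPM 1 in at least 50% of the cells its median was 2.202, against 2.165 for the 6324 rows of that kind. Since the SD depends on the level, each gene was also ranked among the 200 rows with the closest mean log2(TPM + 1), where a rank is the number of those rows with a smaller SD. The median rank of the 28 genes was 89. Of the 28, 9 ranked under 50, 12 over 100 and 5 over 150. As a set, the 28 genes thus spread much like other rows of their level.

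The 5 lowest ranks were those of Rab14 (SD 0.68, rank 7), Rab11a (SD 0.56, rank 10), Rab11b (SD 1.66, rank 14), Rab10 (SD 1.23, rank 15) and Rab24 (SD 1.21, rank 18). Of these, Rab11a, Rab11b and Rab14 belong to the recycling group, whose other 2 genes among the 28, Rab4a and Rab4b, had ranks of 124 and 106. Rab1 (rank 22) and Rab2a (rank 24) followed. Rab7 had the highest rank, 196, with an SD of 2.21, from the 5 low cells described above and the 43 cells above 100 TPM. Rab28 (SD 2.92, rank 185), Rab34 (SD 2.69, rank 166), Rab31 (SD 2.86, rank 163) and Rab2b (SD 2.82, rank 158) came next.

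**Figure D4:**
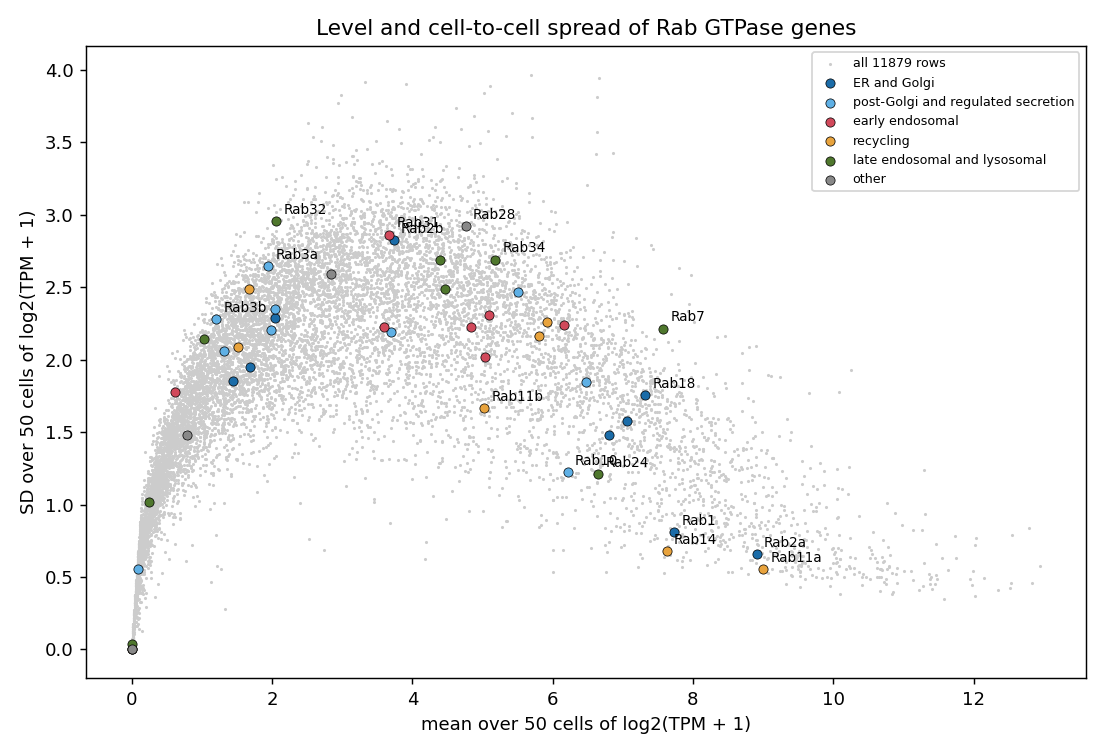
SD over 50 cells of log2(TPM + 1) (vertical axis) against its mean (horizontal axis) for the 48 Rab GTPase genes, coloured by function group, and for all 11879 rows in grey. Rab11a, Rab2a, Rab14 and Rab1 sit along the lower edge of the grey points at high level, and Rab7 lies above them at a mean near that of Rab1.

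The machinery that acts on Rabs was then examined. Genes of prenylation and membrane extraction were above TPM 1 in at least 50% of the cells for 6 of 7 rows. Gdi2, a GDP dissociation inhibitor, had a median of 457 TPM and was above TPM 1 in 50 cells, and Rabac1 had a median of 354 TPM (50 cells). Gdi2 is thus at a median level between those of Rab11a and Rab7. Of the exchange factors that load Rabs with GTP, 24 of 40 rows passed that limit, and the 3 with the highest medians were subunits of the TRAPP complex, which acts on Rab1. They were Trappc6a (429 TPM), Trappc1 (262 TPM) and Trappc2l (208 TPM).

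GTPase-activating proteins are the class that switches Rabs off, but the activity of single listed proteins on Rabs was not checked. Of the rows listed in this class, 17 of 36 passed. The highest medians were those of Tbc1d15 (78.1 TPM, 48 cells), Tbc1d7 (42.7 TPM, 33 cells) and Tbc1d17 (39.3 TPM, 39 cells). Of effectors, 19 of 38 rows passed, led by Exoc6 (68.9 TPM, 43 cells), Ehd1 (58.0 TPM, 47 cells) and Vps41 (53.2 TPM, 40 cells). For granule contents and membrane proteins of endothelium, 3 of 8 rows passed, namely Cd63 (1249 TPM), Tspan6 (204 TPM) and Vwf. Beside the 53.2% of the whole table, the shares of rows passing were 85.7% for prenylation and extraction, 60% for exchange factors, 50% for effectors, 47.2% for activating proteins and 37.5% for the granule list.

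Among the 9 rows that are not GTPases, the Rab11 effectors of the Rab11fip family showed a choice of paralog as well. Rab11fip3 was above TPM 1 in 42 cells at a median of 27.7 TPM and Rab11fip2 in 26 cells at 1.203 TPM. Rab11fip1 and Rab11fip5 were each above TPM 1 in 5 cells, and Rab11fip4 was listed at 0 in all 50. The Rab3 GTPase-activating subunits Rab3gap1 and Rab3gap2 were above TPM 1 in 22 and 33 cells, and the exchange factors Rab3il1 and Rab3ip in 27 and 20 cells.

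Small GTPases of other families were set beside the Rabs. The 15 Ras and Rap rows summed to a median of 2237 TPM per cell and the 25 Arf and Sar rows to 3440 TPM, against 4169 TPM for the 48 Rab genes. The Rab sum was the higher in 49 cells against Ras and Rap and in 39 against Arf and Sar. Of the Ras and Rap rows, 13 of 15 were above TPM 1 in at least 50% of the cells, as were 17 of 25 Arf and Sar rows. Sums of unequal numbers of genes are given as values only.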

How the data were processed

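A whole-transcriptome kit amplified the polyA RNA of each sorted cell, without any molecular identifier being named. Per the labels and the study's methods, the authors aligned reads to mm10 with HISAT2 2.1.0 and estimated TPM per gene with StringTie 1.3.4. The deposited TPM columns sum to 942975 to 970894 per cell, and the rule that selected the rows is not given in the sources used here. TPM keeps no depth, so depth per cell is unknown.

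Members and lists were chosen with earlier results of these data known. GTPases were assigned to function groups and families by symbol. A gene was counted in a cell above TPM 1, with exact Clopper-Pearson 95% intervals, and logs used a pseudocount of 1. A family was compared in cells where its paralogs summed to above TPM 1. A floor of 3 counts gave the limit for a count of 0. No cell was left out, no test was run and no cells were clustered. Genes named with full values were those of families with 2 or more rows and a member in at least 50% of the cells, the 3 highest medians of each group and of each regulator role, the 5 largest and smallest SD ranks among genes in at least 50% of the cells, and genes at 0. Other genes were named after their values were seen, and some items under these rules are not reported here. All 57 rows matched GENCODE M21 (55 by symbol, 2 by RefSeq synonym), and exons of 18 of the 48 GTPases overlap another annotated gene. Longest coding transcripts, principal ones first, gave the sequences. Scripts were tested on simulated data with Python 3.11.15, pandas 2.3.3, SciPy 1.17.1 and Biopython 1.88.

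Alternatives were other TPM levels (0, 5, 10), rescaling without the 83 ribosomal protein rows, values at or below TPM 1 set to 0, a family TPM above 10, a leader at least 2 times the next, a pseudocount of 0.1, no filter on low genes, and left-out cells.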

Additional observations from a re-analysis of the deposited data

How the results depend on the processing

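A value per cell was taken as kept within 1 SD over cells, a share of cells within its exact interval and a count within 1.5 times. The median spread was taken as kept within 1 SD over genes. A median over cells can hardly move by 1 SD over cells when part of the cells is left out. For left-out cells that rule therefore shows little. Of the 19 main results, those to which each alternative applied were kept, with these exceptions. Where a leader had to be at least 2 times the next paralog, which by construction counts fewer cells, Rab1 led in 42% of cells, Rab22a in 50%, Rab4b in 29.2% and Rab5a in 36.7%. Without first title number 1, Rab6a led in 100% of cells. Leaving out each first title number in turn gave 27 to 29 GTPase genes in at least 50% of the cells, 34.8% to 35.3% for the ER and Golgi share, 25.1% to 26.3% for recycling and 8.52% to 9.33% for early endosomal, while cells led by Rab4b were 48.6% to 57.1%. With every value above 0 counted, 5 of 48 shares of single genes moved (Rab18, Rab27b, Rab31, Rab34 and Rab35), and at TPM above 10 another 5 did (Rab21, Rab23, Rab43, Rab6b and Rab8b). With cells left out, the share moved for Rab24 without first title number 1, for Rab11b and Rab37 without number 4, and for Rab18 and Rab24 without the 7 cells under 5000 genes. Leaving out cell 4-6 was chosen after seeing the data and kept all 19 results. No paired analysis was possible because all 50 cells belong to 1 group. A gene listed at 0 may be off or below detection, and TPM alone does not separate these.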
